A study of Homo sapiens with 4 samples.

Results

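The 52 genes described here encode the machinery that moves newly made proteins into and out of the endoplasmic reticulum (ER): the signal recognition particle (SRP) and its receptor, the SEC61 translocon with its partners, the oligosaccharyltransferase (OST), the COPII and COPI vesicle coats, and the cargo receptors that travel between ER and Golgi. They were taken by gene symbol from the 15201 genes of the deposited expression table, and all 52 had values in every library. All 52 also passed the filter on low values, a mean of at least 1 FPKM, that left 13411 genes for testing. FPKM is the number of fragments per kilobase of transcript, scaled to the reads of the library, so levels can be set side by side between genes of different length.

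RNA was sequenced from ARP-1 cells, an established line of malignant human plasma cells from multiple myeloma. Carfilzomib-resistant ARP-1 cells (CfzR, n = 2 libraries) were compared with the wild-type line (WT, n = 2 libraries). Carfilzomib is an irreversible inhibitor of the proteasome, the protease that degrades proteins, including misfolded ones that the ER exports back to the cytosol. The labels give neither the drug dose nor whether the resistant cells are 1 clone, and nothing in them ties the replicates to separate cultures. The p-values therefore reflect library-to-library spread alone, part of which may be technical.

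In a cell that secretes, SRP binds the signal sequence of a growing chain and docks at the SRP receptor, the chain enters the ER through SEC61, signal peptidase removes the signal sequence, and OST attaches N-glycans. COPII coats carry folded cargo to the Golgi, and COPI coats return receptors and escaped ER proteins. Plasma cells, which export immunoglobulin, are known for a large ER and high expression of these genes. The transcription factor XBP1, together with the ATF6 branch of the unfolded protein response (UPR), is known to drive many of them through short promoter elements.

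One such element, TGACGTGG, is bound by XBP1 and ATF6, and its 6-base core is GACGTG. Promoter windows of 250 bases before the transcription start (RefSeq, GRCh38.p14) were matched by symbol for 45 of the 52 genes, in 59 windows, and searched on both strands. The whole element was found for 7 of the 45 genes (15.6%), against 91 of 8966 tested genes with a window (1.01%), and in 0.612% of all 35116 windows of the table. The core, which lies inside the whole element, was found for 19 of the 45 (42.2%), against 1048 of the 8966 (11.7%) and 6.5% of all windows. The longer ER stress elements ERSE and ERSE-II were found for 0 of the 45 genes, and for 0.167% and 0.123% of the tested genes. A match describes letters in a window and does not show binding. The elements with 20 bases of each flank are shown because the ratio of its share among these genes to its share among all tested genes was the highest of the motifs searched, with the element in capitals, 5′ to 3′ on the gene's strand (CCACGTCA is the element read on the other strand).
SRP19, chr5:112861155-112861202, plus strand: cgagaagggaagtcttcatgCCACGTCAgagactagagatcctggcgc
SSR3, chr3:156554139-156554186, minus strand: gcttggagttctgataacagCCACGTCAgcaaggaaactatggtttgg
SSR4, chrX:153794519-153794566, plus strand: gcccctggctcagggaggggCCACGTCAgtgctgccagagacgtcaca
SEC24A, chr5:134648586-134648633, plus strand: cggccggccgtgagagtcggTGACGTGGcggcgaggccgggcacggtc
COPB1, chr11:14499832-14499879, minus strand: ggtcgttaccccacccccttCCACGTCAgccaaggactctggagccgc
COPB2, chr3:139389816-139389863, minus strand: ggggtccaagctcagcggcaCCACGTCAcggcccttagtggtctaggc

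**Figure D1:**
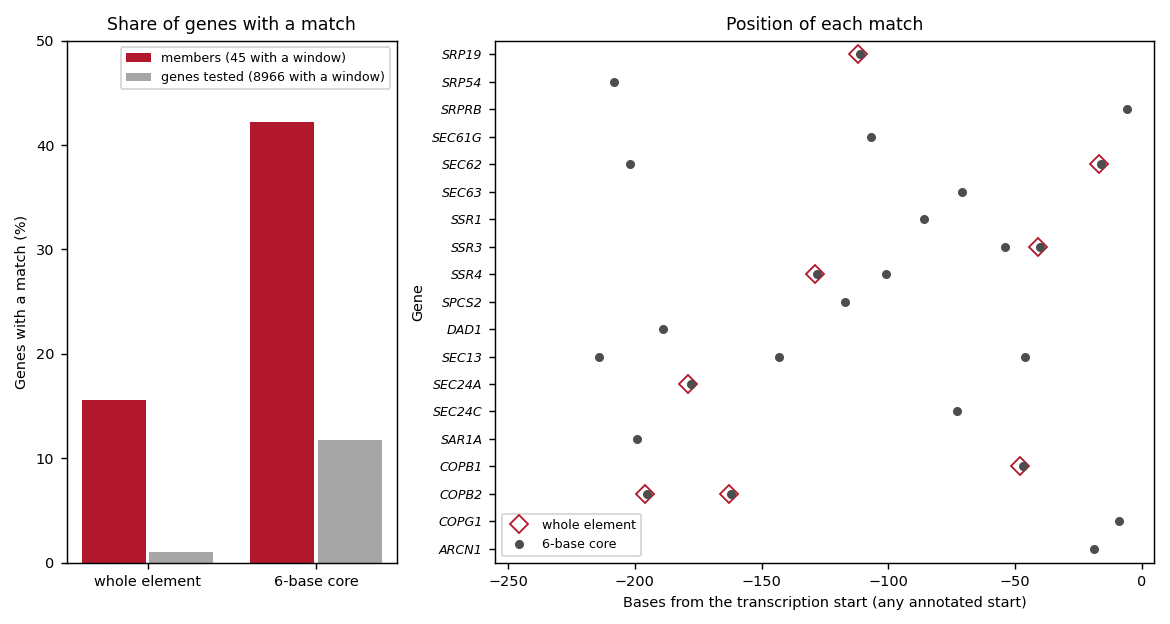
The left panel gives the percentage of genes with a match to the whole element or its 6-base core in the 250 bases before the start, for the members and for all tested genes with a window. The right panel places each match in bases from the transcription start for the 19 members with a core, and the 7 members with diamonds (whole element) lie in SRP, translocon and coat genes.

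The SEC62 element lay too near the start to show with both flanks. By group, the core was found for 7 of 13 translocon genes with a window, 4 of 7 COPI, 4 of 8 COPII, 3 of 7 SRP, 1 of 5 OST and 0 of 5 cargo receptor genes. The 19 genes with a core had a median log2 fold change (CfzR over WT) of -0.04, and the 26 without had 0.12. The difference between these medians was not tested.

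The libraries differed in ways that touch these genes. Sequencing depth is unknown, since the table holds no counts. In the CfzR pair, the difference of replicate 1 from replicate 2 followed transcript length across all tested genes with a length (Spearman 0.466, n = 12896 genes), against 0.146 for the WT pair, and the sum of FPKM was 673265 in CfzR replicate 1 against 877849 in CfzR replicate 2, 918617 in WT replicate 1 and 955284 in WT replicate 2. Ribosomal protein genes (77 tested) had a median of -0.59 in CfzR replicate 1 and -0.10 in CfzR replicate 2, relative to the WT mean on the log2 scale. Mitochondrially encoded genes took 4.18% and 4.85% of FPKM in CfzR, and 8.43% and 4.28% in WT. Across the 52 genes the same length relation was 0.373 for the CfzR pair and -0.0606 for the WT pair. All 10 members with a mean of at least 200 FPKM were lower in CfzR replicate 1 than in CfzR replicate 2, against 15 of the 42 others. The part of length or library make-up in the results below was not tested beyond the correction given for named genes. The 8 plasma cell markers listed summed to 6653 and 6093 FPKM in CfzR and to 5865 and 5948 FPKM in WT. JCHAIN held most of that sum, and the 7 others summed to 2052 and 2255 FPKM in CfzR and 2252 and 2456 FPKM in WT, with overlap. Of the T cell, myeloid, erythroid and fibroblast markers listed, 0 had values among the genes analysed, and the epithelial keratins KRT8 and KRT18 summed to 2.10 and 3.70 FPKM in CfzR and 6.28 and 6.79 FPKM in WT.

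Secretory transport genes stood high in every library. Their summed level was 6781 and 7639 FPKM in CfzR replicates 1 and 2, and 7263 and 7325 FPKM in WT replicates 1 and 2. As a part of all FPKM in the library this was 1.01% and 0.870% in CfzR, against 0.791% and 0.767% in WT, with a smaller library sum in both CfzR libraries. The median member had a mean of 81.1 FPKM over the 4 libraries, against 10.4 FPKM for all genes tested, and the lowest, SEC23A, had 10.6 FPKM. Levels differed by function. The translocon group had a median of 158 FPKM and OST 119 FPKM, while cargo receptors had 72.8, COPI 64.6, SRP 61.2 and COPII 25.0 FPKM. Within a complex whose subunits assemble in fixed ratios, transcript levels were far from equal. SRP14 exceeded SRP54 by 18.6-fold and 24.5-fold in the CfzR libraries and by 24.8-fold and 22.8-fold in the WT libraries. In the COPI coat, COPE exceeded COPA by 9.04-fold and 16.3-fold in CfzR and by 14.2-fold and 14.5-fold in WT. Across the 52 genes, the mean level and the length of the longest transcript were inversely related (Spearman -0.593), a description across genes that share libraries.

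**Figure D2:**
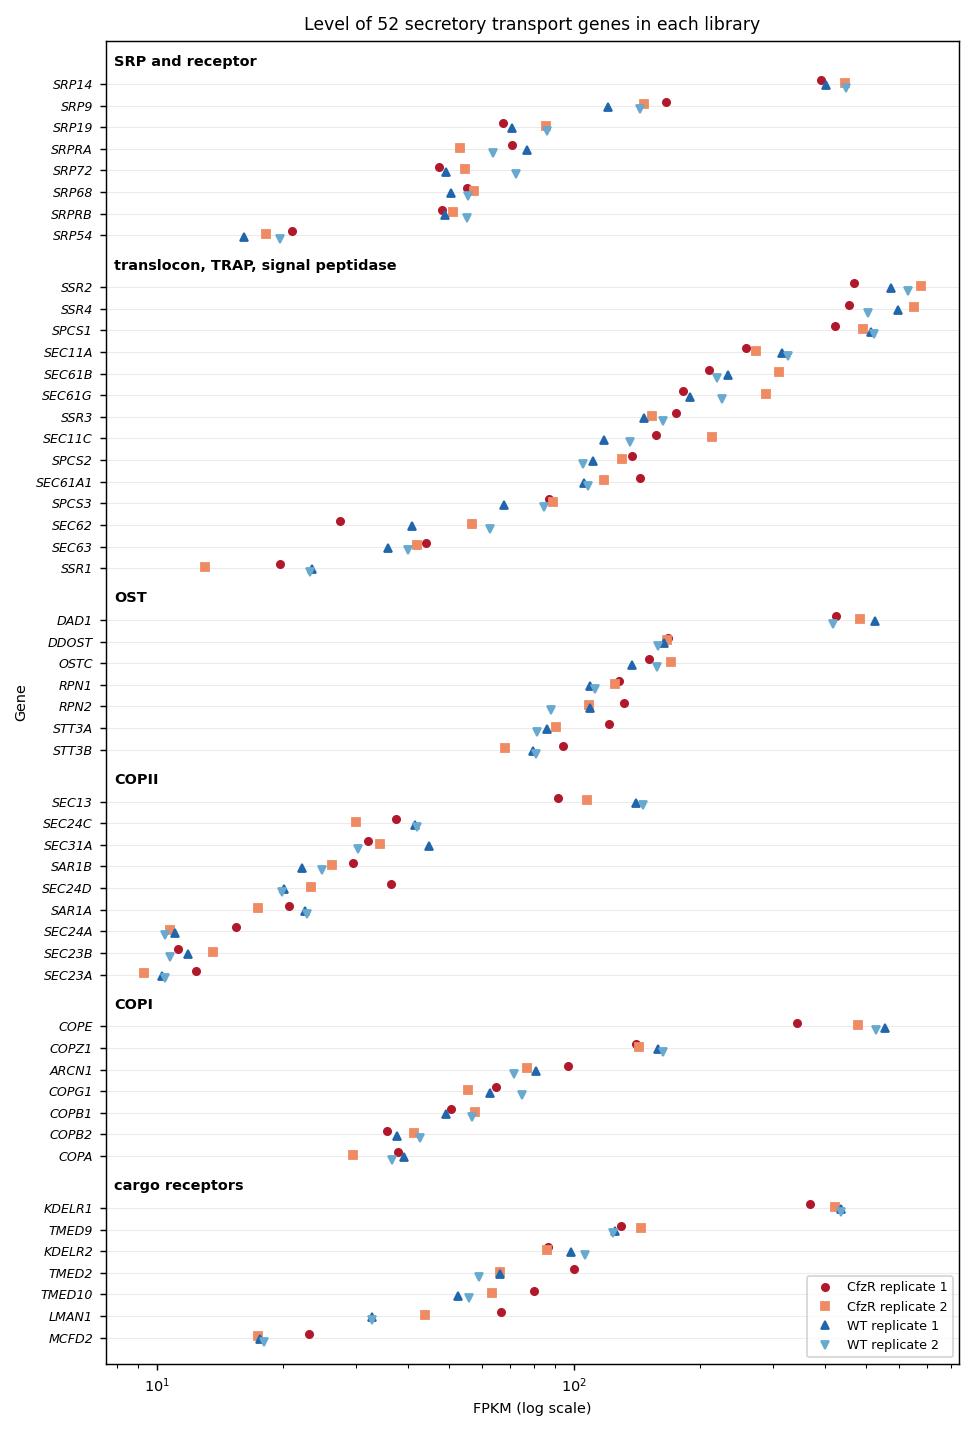
Each row is a gene and each point 1 library, with FPKM on a log axis, and genes are ordered by mean level inside each functional group. Levels run from about 10 FPKM for the SEC23 and SEC24A genes to 677 FPKM for SSR2 in CfzR replicate 2, and for most genes the spread between genes is far wider than that between libraries.

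The comparison asks how this machinery differs in cells that survive a proteasome inhibitor. Groups were compared on log2(FPKM + 1) with limma across all 13411 genes, with Benjamini-Hochberg adjustment over all of them. Of the 52 genes, 0 passed the threshold of 0.05 on the adjusted p, where 47 genes of the whole table did (0.35%; 0.246% higher and 0.104% lower). The smallest adjusted p among the 52 was 0.359, for LMAN1. At an unadjusted p under 0.05 there were 2 members (3.85%), LMAN1 higher and SEC13 lower, against 11.1% of all genes tested (5.32% higher and 5.81% lower). That count is no larger than the background share. It depended on single libraries: with 1 library left out, the count higher ran from 0 (without either WT library) to 6 (without CfzR replicate 2), and the count lower from 0 to 3.

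The 52 log2 fold changes lay between -0.52 (SEC13) and 0.71 (LMAN1), with a median of 0.05 against -0.02 for all genes tested. Relative to the WT mean, the members' median was 0.01 in CfzR replicate 1 and 0.06 in CfzR replicate 2. Under quantile normalization the members' median was 0.23. Positive values were found for 28 of the 52 (53.8%, against 47.1% of all genes). The groups did not overlap, with both CfzR libraries higher, for 15 members (28.8%, against 22.1% of all genes), and with both lower for 10 (19.2%, against 22.6%). For 45 of the 52 (86.5%) the 95% interval of the log2 fold change lay within a change of 1 in either direction, as it did for 70% of all genes tested, most of them at lower levels. The lowest bound of any interval was -1.22 (SEC62) and the highest 1.28 (LMAN1). In bulk RNA, fewer cells expressing a gene and less RNA per cell cannot be told apart.

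**Figure D3:**
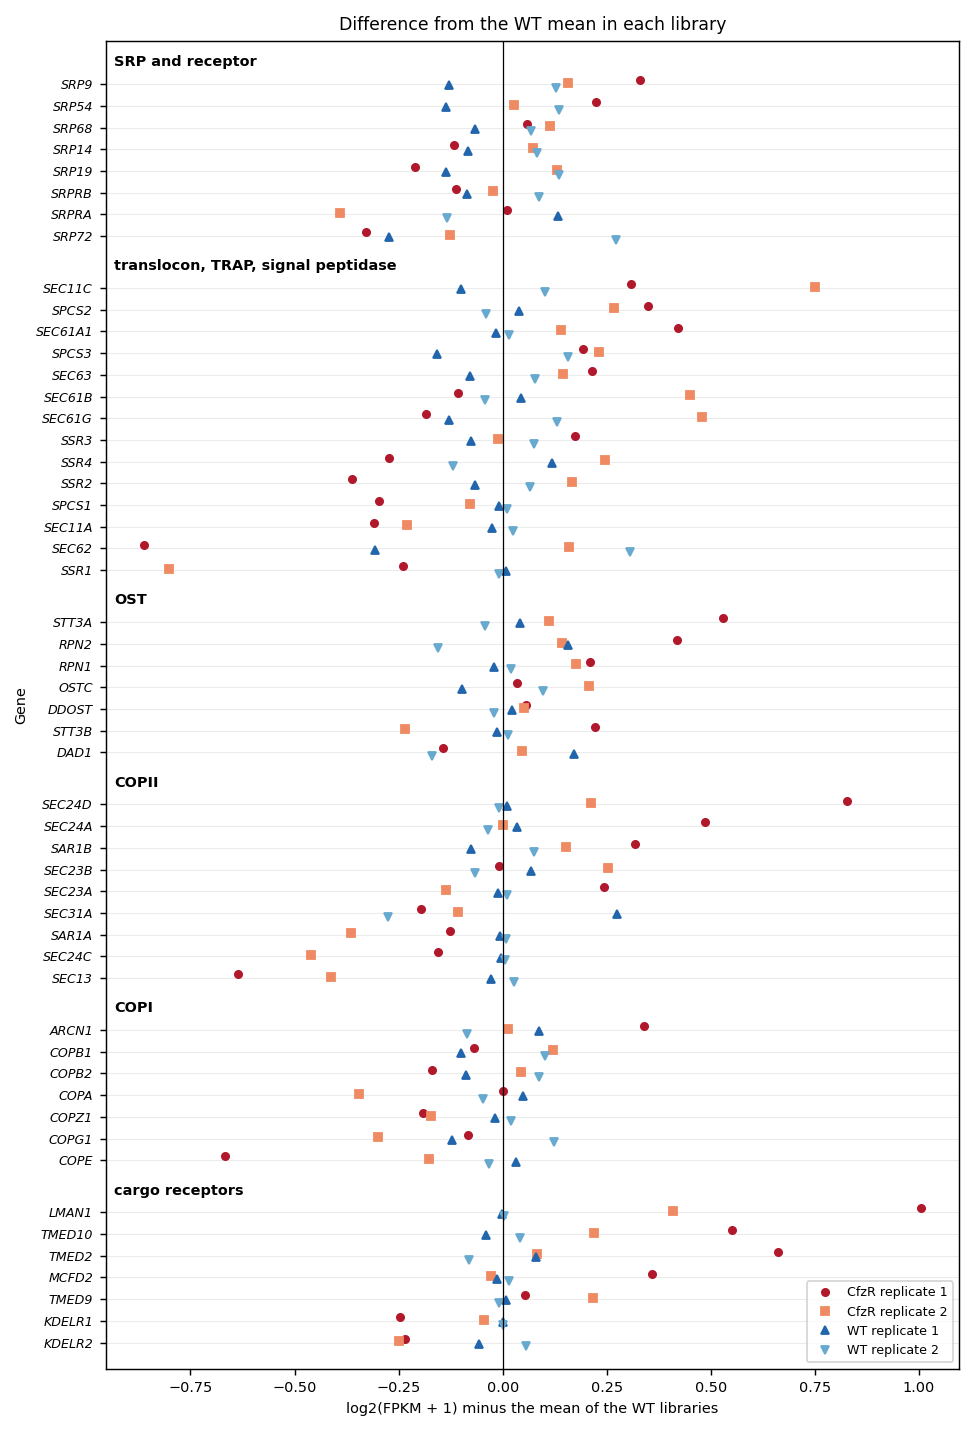
Each row is a gene, and points give log2(FPKM + 1) of each library minus the mean of both WT libraries, with genes ordered by log2 fold change inside each group. LMAN1 lies at 1.00 and 0.41 in CfzR replicates 1 and 2, SEC13 at -0.64 and -0.41, and for 27 genes the CfzR and WT points overlap.

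The SRP brings ribosomes to the ER membrane. Its 8 genes, receptor included, had log2 fold changes from -0.23 to 0.24, with intervals that all lay within a change of 1, and 0 passed. Their median was -0.03, but 0.15 under quantile normalization, 0.05 without CfzR replicate 1 and 0.08 without WT replicate 2. SRP9, which with SRP14 forms the part of the particle that slows elongation, stood at 166 and 147 FPKM in CfzR, against 121 and 144 FPKM in WT (log2 fold change 0.24, SE 0.22, limma adjusted p = 0.683). It was the only 1 of the 8 genes whose groups did not overlap, against 22.1% higher and 22.6% lower of all genes. The margin between CfzR replicate 2 and WT replicate 2 was narrow. SRP14, the most abundant, stood at 391 and 446 FPKM in CfzR, against 401 and 449 FPKM in WT. SRP72, part of the protein core, stood at 47.4 and 54.6 FPKM in CfzR, against 49.3 and 72.4 FPKM in WT, and WT replicate 2 alone was high. Both receptor genes, SRPRA and SRPRB, had overlapping groups.

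The translocon group of 14 genes had a median log2 fold change of 0.11, with 8 positive, 5 genes higher and 3 lower without overlap (22.1% and 22.6% of all genes), and 0 passed. That median was -0.04 once corrected for length and GC share, and -0.15 without CfzR replicate 2, so its sign is not fixed, and it was 0.04 without WT replicate 1 and 0.31 under quantile normalization. SEC61A1, the channel itself, stood at 144 and 118 FPKM in CfzR, against 106 and 108 FPKM in WT (log2 fold change 0.28, limma adjusted p = 0.637), so both resistant libraries lay above both wild-type ones. Its small partners SEC61B and SEC61G were high in CfzR replicate 2 only, at 310 and 289 FPKM, and their groups overlapped. The 4 genes of the TRAP complex, which assists SEC61 with some signal sequences, did not move together. SSR1, its alpha subunit, stood at 19.7 and 13.0 FPKM in CfzR, against 23.6 and 23.3 FPKM in WT (log2 fold change -0.52, SE 0.24, unadjusted p = 0.0638, limma adjusted p = 0.478), and both CfzR libraries were lower. SSR2, the most abundant of all 52 genes, stood at 469 and 677 FPKM in CfzR, against 576 and 632 FPKM in WT, with the CfzR libraries on either side of WT. SEC62, which acts with SEC63 in post-translational import, varied most within groups, at 27.5 and 56.8 FPKM in CfzR and 40.9 and 63.0 FPKM in WT.

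In signal peptidase the groups did not overlap for any of the 5 genes, 3 of them higher (against 22.1% of all genes) and 2 lower (against 22.6%) in CfzR. Its catalytic subunit comes in a pair of paralogs, SEC11A and SEC11C. SEC11C stood at 157 and 214 FPKM in CfzR, against 118 and 136 FPKM in WT (log2 fold change 0.53, SE 0.25, unadjusted p = 0.0686, limma adjusted p = 0.485). SEC11A stood at 258 and 273 FPKM in CfzR, against 314 and 326 FPKM in WT (log2 fold change -0.27, SE 0.23, limma adjusted p = 0.668). SPCS2 and SPCS3, accessory subunits, were higher in both CfzR libraries (log2 fold changes 0.31 and 0.21), and SPCS1, another, was lower (-0.19).

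OST genes had a median log2 fold change of 0.12, with 5 of 7 positive, 3 higher and 0 lower without overlap (22.1% and 22.6% of all genes), and 0 passed. The median was 0.21 without CfzR replicate 2 and 0.35 under quantile normalization. STT3A, the catalytic subunit that glycosylates chains as they enter the ER, stood at 121 and 90.5 FPKM in CfzR, against 86.2 and 81.3 FPKM in WT (log2 fold change 0.32, SE 0.23, limma adjusted p = 0.608). STT3B, the paralog that acts on sites STT3A skips, stood at 93.8 and 68.1 FPKM in CfzR, against 79.5 and 81.0 FPKM in WT, with the CfzR libraries on both sides of WT. RPN2, a structural subunit, stood at 131 and 108 FPKM in CfzR, against 109 and 87.9 FPKM in WT, and the groups overlapped narrowly. DAD1, a small subunit first known from apoptosis, stood at 424 and 484 FPKM in CfzR, against 528 and 416 FPKM in WT, and the WT libraries enclosed the CfzR ones.

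COPII held the member with the second smallest p. The group's median was 0.05, but -0.11 without CfzR replicate 1, -0.01 without CfzR replicate 2, and -0.17 once corrected for length and GC share. SEC13, which with SEC31A builds the outer cage and also belongs to the nuclear pore, stood at 91.7 and 107 FPKM in CfzR, against 140 and 146 FPKM in WT. Both resistant libraries lay well below both wild-type ones, at 99.5 ± 10.98 and 143 ± 3.86 FPKM (SD, n = 2 each; log2 fold change -0.52, SE 0.21, unadjusted p = 0.0424, limma adjusted p = 0.428). Its value was similar after correction for transcript length and GC share (-0.52), and -0.33 under quantile normalization. SEC31A stood at 32.1 and 34.2 FPKM in CfzR, against 44.8 and 30.3 FPKM in WT, and did not separate the groups. A promoter window of SEC13 is printed because it is the member with the smallest p among those lower in CfzR and carries the core (capitals, on the other strand). Another window of SEC13, not printed, has core matches at 214 and 46 bases before its own start, which may include the same site. The printed window lies at chr3:10321113-10321362, minus strand, GRCh38.p14.
SEC13: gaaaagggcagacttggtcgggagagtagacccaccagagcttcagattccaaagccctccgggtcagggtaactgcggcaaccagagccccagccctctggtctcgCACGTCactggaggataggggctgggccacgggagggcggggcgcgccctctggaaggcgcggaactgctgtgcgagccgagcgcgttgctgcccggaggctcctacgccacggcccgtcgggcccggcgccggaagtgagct

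The inner COPII coat pairs SEC23 with SEC24, the cargo-binding subunit, and SAR1 is the GTPase that starts assembly. SEC24D stood at 36.3 and 23.4 FPKM in CfzR, against 20.2 and 19.9 FPKM in WT (log2 fold change 0.52, SE 0.25, unadjusted p = 0.0726, limma adjusted p = 0.490), with both CfzR libraries higher and far from each other. SEC24C stood at 37.4 and 30.1 FPKM in CfzR, against 41.6 and 41.9 FPKM in WT (log2 fold change -0.31, SE 0.20, limma adjusted p = 0.581). SEC24A stood at 15.4 and 10.7 FPKM in CfzR, against 11.02 and 10.4 FPKM in WT, high in CfzR replicate 1 alone. SAR1A stood at 20.7 and 17.5 FPKM in CfzR, against 22.7 and 22.9 FPKM in WT, and SAR1B at 29.5 and 26.2 FPKM in CfzR, against 22.2 and 24.8 FPKM in WT. Both SAR1 genes separated the groups, in opposite directions (log2 fold changes -0.25 and 0.24, limma adjusted p = 0.644 and 0.655). SEC23A stood at 12.4 and 9.33 FPKM in CfzR, against 10.3 and 10.4 FPKM in WT. SEC23B stood at 11.2 and 13.6 FPKM in CfzR, against 11.9 and 10.7 FPKM in WT, and the groups overlapped for both SEC23 genes.

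In 4 of the 6 paralog sets the make-up differed between groups without overlap. No such share was computed for other sets of genes, so this count has no background. A set was counted for a difference in either direction. Single genes without overlap were 22.1% higher and a further 22.6% lower, and both shares apply to such a count. SEC11C made up 37.9% and 44.0% of the summed SEC11 level in CfzR, against 27.3% and 29.5% in WT. SAR1B made up 58.7% and 60.03% of the SAR1 level in CfzR, against 49.5% and 52.05% in WT. STT3A made up 56.4% and 57.1% of the STT3 level in CfzR, against 52.02% and 50.1% in WT. Such shares do not change with the scaling of a library, since both genes are read in the same library. Among SEC24A, SEC24C and SEC24D, SEC24C made up 41.9% and 46.9% in CfzR, against 57.1% and 58.0% in WT, and SEC24D 40.7% and 36.4% in CfzR, against 27.7% and 27.6% in WT. The share of SEC23A was 52.6% and 40.6% in CfzR, against 46.4% and 49.3% in WT, with overlap. KDELR1 made up 80.9% and 83.1% of the summed KDELR1 and KDELR2 level in CfzR, against 81.6% and 80.4% in WT, also with overlap. KDELR3, outside the members, was not part of this sum. With 2 libraries a group, an exact permutation test of a share has 3 ways to split the libraries and cannot go below p = 0.333, and the shares are given as a description.

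**Figure D4:**
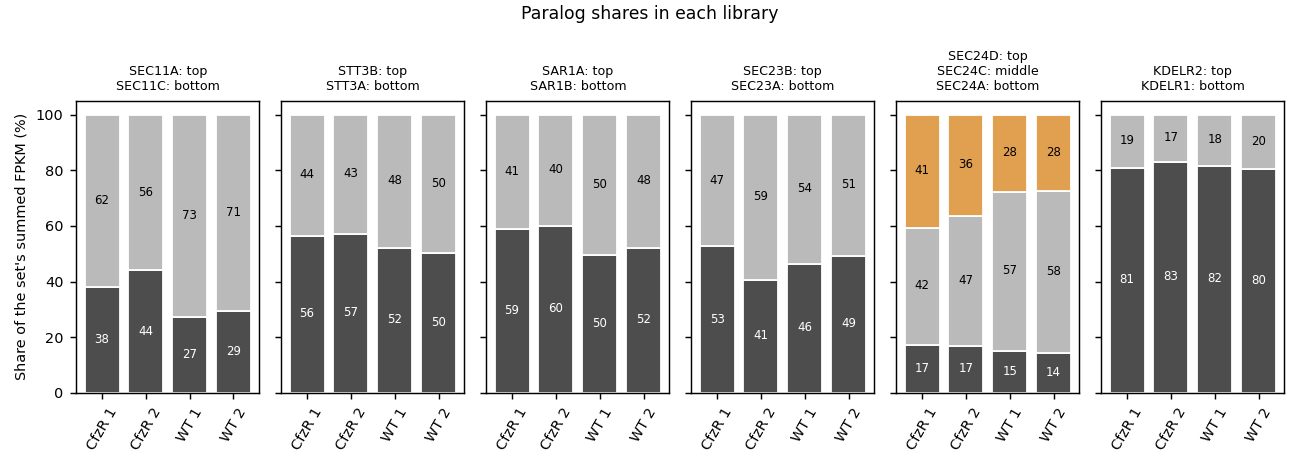
Stacked bars give each paralog's share (%) of its set's summed FPKM in the CfzR libraries (left pair) and the WT libraries (right pair). SEC11C, STT3A, SAR1B and SEC24D take larger shares in both CfzR libraries than in either WT library, while the SEC23 and KDELR sets overlap.

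Transcripts of the pairs differ in length and GC share, which shares do not correct for. After the correction for both, log2 fold changes were 0.44 for SEC11C and -0.31 for SEC11A, and 0.43 for SEC24D and -0.32 for SEC24C. Those of SAR1B and SAR1A were 0.03 and -0.38. STT3A stayed positive and STT3B negative, as without the correction. SAR1B and SEC24A also overlap in exons on opposite strands, and whether reads were counted by strand is not known, so these genes are uncertain.

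COPI genes had a median log2 fold change of -0.17, which was 0.04 under quantile normalization, so its direction depends on scaling. Of the 7, 5 were negative, 0 were higher and 2 lower without overlap (22.1% and 22.6% of all genes), and 0 passed. Without CfzR replicate 2 the median was -0.08, and without WT replicate 2 it was -0.07. COPE, the epsilon subunit and the most abundant, stood at 341 and 480 FPKM in CfzR, against 555 and 531 FPKM in WT (log2 fold change -0.42, SE 0.29, limma adjusted p = 0.590), with CfzR replicate 1 by far the lowest. COPZ1, the zeta subunit, stood at 141 and 143 FPKM in CfzR, against 159 and 163 FPKM in WT, closely grouped on either side (log2 fold change -0.18, limma adjusted p = 0.746). COPG1, the gamma subunit, stood at 64.8 and 55.6 FPKM in CfzR, against 63.0 and 74.9 FPKM in WT. The other 4, COPA, COPB1, COPB2 and ARCN1, had log2 fold changes from -0.17 to 0.18 with overlapping groups.

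Cargo receptors held the gene with the smallest p of the 52. The group's median was 0.16, with 0.08 without CfzR replicate 1, 0.36 without CfzR replicate 2 and 0.34 under quantile normalization. LMAN1 (ERGIC-53), the mannose-binding lectin that carries glycoproteins such as clotting factors out of the ER, stood at 66.7 and 43.8 FPKM in CfzR, against 32.7 and 32.8 FPKM in WT. Means were 55.3 ± 16.2 and 32.8 ± 0.0960 FPKM (SD, n = 2 each), a ratio of 1.69 (log2 fold change 0.71, SE 0.24, unadjusted p = 0.0234, limma adjusted p = 0.359). Both CfzR libraries were higher, but they differed from each other by more than the nearer differed from WT, and leaving out CfzR replicate 1 gave a log2 fold change of 0.41 and leaving out CfzR replicate 2 gave 1.00. MCFD2, its partner in factor V and VIII transport, stood at 23.2 and 17.5 FPKM in CfzR, against 17.7 and 18.04 FPKM in WT, with overlap. The promoter window of LMAN1 is shown as that of the member with the smallest p, at chr18:59359266-59359515, minus strand, GRCh38.p14, and it holds no core of the UPR element.
LMAN1: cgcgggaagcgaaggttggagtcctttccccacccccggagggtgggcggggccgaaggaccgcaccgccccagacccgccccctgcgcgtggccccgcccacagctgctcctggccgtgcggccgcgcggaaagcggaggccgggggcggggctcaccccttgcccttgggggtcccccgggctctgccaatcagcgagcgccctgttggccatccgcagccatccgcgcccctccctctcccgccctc

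All 3 p24 family genes, which bind cargo and coats at both ends of the route, were higher in both CfzR libraries, as were 22.1% of all genes, and none had a limma adjusted p under 0.532. TMED10 stood at 79.9 and 63.4 FPKM in CfzR, against 52.7 and 55.9 FPKM in WT (log2 fold change 0.38, SE 0.21, limma adjusted p = 0.532). TMED2 and TMED9 had log2 fold changes of 0.37 and 0.14. Both KDEL receptors among the members, which return ER chaperones from the Golgi, were lower in both CfzR libraries, as were 22.6% of all genes. KDELR3, outside the members, was also lower without overlap (log2 fold change -0.13). KDELR1 was positive under quantile normalization (0.18). KDELR1 stood at 367 and 422 FPKM in CfzR, against 435 and 435 FPKM in WT, and KDELR2 at 86.7 and 85.8 FPKM in CfzR, against 98.2 and 106 FPKM in WT (log2 fold changes -0.14 and -0.24, limma adjusted p = 0.831 and 0.655). No gene of either family passed the test.

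SEC11C and LMAN1 are consecutive tested genes of chromosome 18 (GENCODE 29, GRCh38, matched by gene ID), at chr18:59139477-59158836 on the plus strand and chr18:59327823-59359962 on the minus strand, 169 kb apart. Of the 5 tested genes on either side of the pair, 8 of 10 had positive log2 fold changes, with a median of 0.23, and the groups did not overlap for 5, with 3 higher (against 22.1% of all genes) and 2 lower (against 22.6%). The lower ones were RPS3AP49 (-0.48) and TNFRSF11A (-0.70, limma adjusted p = 0.294). The nearest beyond LMAN1 is PMAIP1, which encodes the pro-apoptotic protein NOXA, at 21.4 and 16.0 FPKM in CfzR, against 11.6 and 12.4 FPKM in WT (log2 fold change 0.59, limma adjusted p = 0.379). Over all 193 tested genes of chromosome 18 the median was 0.08. These neighbours were chosen after their values were seen.

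SAR1A and SEC24C are the only members on chromosome 10. Of 480 tested genes there, 22.1% had a positive log2 fold change, with a median of -0.25, and in each CfzR library the median lay below WT, by -0.20 and -0.26 in replicates 1 and 2. The groups did not overlap downwards for 49% of them, against 22.6% of all genes. The values of SAR1A (-0.25) and SEC24C (-0.31) thus lay near the median of their chromosome. Their part in the paralog shares above was not tested apart from the rest of the chromosome. Other chromosomes differed too. Chromosome 19, which holds COPE and KDELR1, had a median of -0.16 over 817 tested genes, of which 32.1% had a positive value. Relative to WT its median was -0.30 in CfzR replicate 1 and -0.02 in CfzR replicate 2. Chromosome 4 had a median of 0.12. The part of position in the members' values was not tested.

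**Figure D5:**
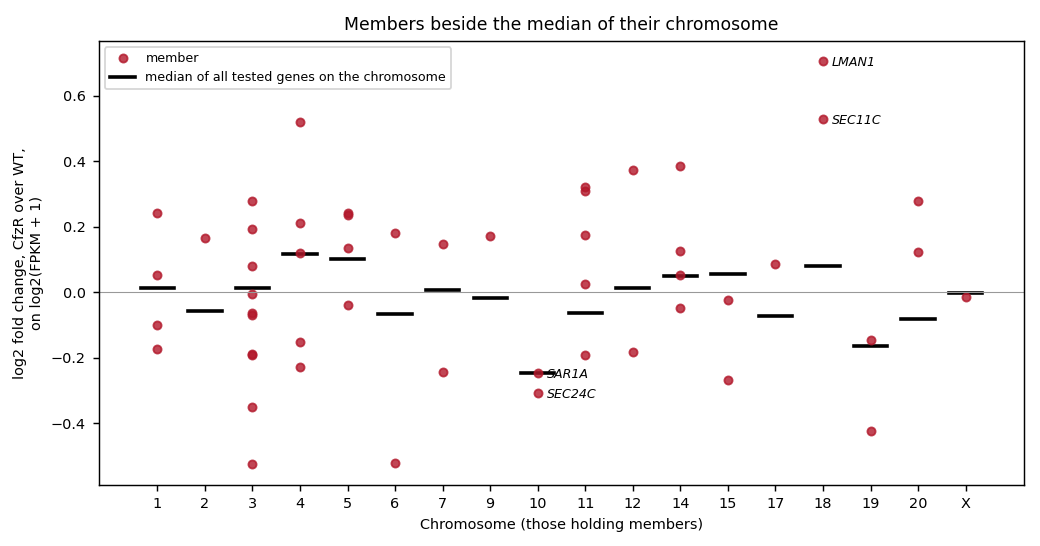
Points are the log2 fold changes (CfzR over WT) of the 52 genes by chromosome, and black bars the median of all tested genes on that chromosome. On chromosome 10 the median is -0.25, beside SAR1A and SEC24C, and on chromosome 18 LMAN1 and SEC11C lie far above a median of 0.08.

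Other genes of the same steps were also compared. Of 125 genes listed for translocon, OST and coat accessory factors, N-glycan precursor synthesis, other cargo receptors, tethers and SNAREs, and membrane insertion, 118 were tested and 7 are not analysed here. Over all 118, 0 passed the limma threshold in either direction, 7 had an unadjusted p under 0.05 (3 higher and 4 lower, 5.93% against 11.1% of all genes), and the median log2 fold change was -0.04. SEC31B, a paralog of SEC31A, stood at 5.22 and 10.9 FPKM in CfzR, against 18.4 and 20.3 FPKM in WT (log2 fold change -1.24, SE 0.31, limma adjusted p = 0.219). SEC16B, an organiser of ER exit sites named after its values were seen, stood at 2.78 and 2.58 FPKM in CfzR, against 0.662 and 0.996 FPKM in WT (log2 fold change 1.01, limma adjusted p = 0.205). Both WT values lay below 1 FPKM, so SEC16B passed the filter on low values only through its CfzR libraries. ALG10, a glucosyltransferase of the N-glycan precursor, stood at 5.16 and 3.83 FPKM in CfzR, against 1.98 and 1.99 FPKM in WT (log2 fold change 0.87, limma adjusted p = 0.250). LMAN2L, a lectin related to LMAN1, stood at 4.07 and 3.42 FPKM in CfzR, against 6.38 and 6.92 FPKM in WT. The groups did not overlap for any of these 4 genes, which were named for the size of their change or after their values were seen. Over all 118, 20 were higher and 30 lower without overlap. The 52 members leaned the other way, with 15 higher and 10 lower. Among all genes tested 22.1% were higher and 22.6% lower without overlap. SEC31B lies on chromosome 10, as SAR1A and SEC24C do, but its value of -1.24 lay far below that chromosome's median of -0.25.

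Other lists had their extremes in TMEM258 (OST, log2 fold change 0.39, with overlap), RINT1 (tethering, 0.46) and UBL4A (tail-anchored protein insertion, -0.48), with limma adjusted p of 0.598, 0.473 and 0.418. Among regulators, XBP1 stood at 800 and 868 FPKM in CfzR, against 953 and 1084 FPKM in WT (log2 fold change -0.29, limma adjusted p = 0.720). HSPA5, the ER chaperone BiP, which also pulls chains through SEC61, stood at 115 and 94.1 FPKM in CfzR, against 60.02 and 67.8 FPKM in WT (log2 fold change 0.69, limma adjusted p = 0.306). BHLHA15 (MIST1), a factor of secretory cells, stood at 16.2 and 11.6 FPKM in CfzR, against 9.38 and 8.11 FPKM in WT (log2 fold change 0.60, limma adjusted p = 0.404). ATF6 and CREB3L2, membrane-bound factors that control ER genes, had log2 fold changes of 0.19 and -0.15. IGKC, the kappa light chain that is the main cargo of these cells by transcript level, stood at 13684 and 17706 FPKM in CfzR, against 13828 and 9844 FPKM in WT, with overlap.

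Reads of some members may be shared with other genes. GENCODE 29 holds 34 pseudogenes named after 14 of the 52 genes, of which 10 have values in the table, among them copies of SRP9, SRP14, SRP72, SPCS2 and OSTC. Exons of 17 members overlap those of another gene in the table, for 14 of them on the opposite strand. Their levels are uncertain to that extent.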

How the data were processed

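Gene expression was analysed from 1 table of FPKM values that the authors deposited, with 1 column per library. Per the submitters' processing notes, the tools were STAR and Cufflinks. Tool versions, build, annotation and use of strand are not given in those sources. Low values showed no common step that 1 read would give, which leaves depth unknown and allows no counting error. The control columns were assigned to WT, the only other group.

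Values were transformed to log2(FPKM + 1), which understates changes of low genes, and genes averaging 1 FPKM or more were kept. With R 4.3.3 and limma 3.58.1, lmFit and eBayes (trend on) compared groups over all 13411 genes, two-sided, with Benjamini-Hochberg adjustment; intervals are 95%. The procedure was tested on simulated data. Log2 fold changes are CfzR over WT. Symbols were matched by gene ID for genes of the table; the longest GENCODE 29 transcript gave each gene's length and GC share. Alternatives were other pseudocounts, filters and scalings, no trend, a replicate block, leaving out each library, and a length and GC correction. This correction removed from each library's deviations the trend fitted with splines of 4 degrees of freedom. Promoter sequences are from RefSeq (GRCh38.p14).

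The members and lists were chosen with earlier results of these data known. Named with full values were members with an unadjusted p under 0.05, the 2 largest absolute log2 fold changes and the highest level in each group, and all paralogs; other members with values (SEC61A1, SEC62, SEC31A, COPZ1, MCFD2 and the like) were added for their roles after values were seen. Outside the members, the largest absolute log2 fold change per list was named, except 1 that is not reported here.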

Additional observations from a re-analysis of the deposited data

How the results depend on the processing

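Of the 52 genes, 0 passed the threshold under any alternative run except with the replicate number as a block. The block gave 1 member higher past the threshold (LMAN1, adjusted p = 0.0151, range over its alternatives 0.0151 to 0.999), with an unadjusted p under 0.05 for 3 higher and 2 lower members, 3 outside pathway genes higher and 1 lower past the threshold (among them ALG10, adjusted p = 0.0171, range 0.0171 to 0.799, HSPA5, 0.0231, range 0.0231 to 0.999, and SEC31B, 1.9e-06, range up to 0.304), and 1242 genes of the whole table. Deviations of same-numbered libraries correlated at 0.252 across genes, with only 2 pairs and no label that ties the numbers to a batch, so the numbers were not taken to pair the samples. With a filter at 5 FPKM, 0 members were lower at that unadjusted p and 27 genes of the table passed. Under TMM scaling 2 members were higher at that p, and SRP14 (0.0051) and STT3B (0.021) changed sign. Quantile normalization gave 3 higher and 0 lower, a members' median of 0.234, and positive values for SRP14 (0.305), SSR2 (0.233), DAD1 (0.267), KDELR1 (0.175) and STT3B (0.180). The length and GC correction gave 3 lower, a members' median of 0.000723, and other signs for SRP14 (0.0183), DAD1 (0.0938) and SEC23A (-0.170). With 1 library left out, where the lone library of a group is assumed to vary like the other group, the counts at an unadjusted p under 0.05 ran from 0 to 6 higher and 0 to 3 lower, the members' median from 0.00527 to 0.0762, and the genes of the table that passed from 16 (without CfzR replicate 1) to 268 (without WT replicate 1), with 18 without CfzR replicate 2 and 133 without WT replicate 2. Log2 fold changes that changed sign then ran from -0.117 to 0.0726 (SRP14), -0.502 to 0.0446 (SRP72), -0.363 to 0.166 (SSR2), -0.220 to 0.122 (DAD1), -0.234 to 0.222 (STT3B), -0.136 to 0.243 (SEC23A), -0.00955 to 0.253 (SEC23B) and -0.000291 to 0.486 (SEC24A). Others kept their sign but moved by over 1.5 times, such as SSR1 (-0.801 to -0.240), SEC11C (0.309 to 0.751), STT3A (0.111 to 0.529), SEC24D (0.212 to 0.826) and COPE (-0.667 to -0.177), each with its ends set by leaving out 1 or the other CfzR library. The causes were not tested. Depth is unknown, and 2 libraries a group limit what can be detected.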
